A study of Mus musculus with 4 samples.

Results

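ESC-derived CORIN+LMX1A::GFP+ cells of culture day 9 were compared with CORIN-LMX1A::GFP+ cells of the same day, with 1 array for each population. Of 28856 transcript clusters (probe sets that each cover a transcript), the 21789 that the array annotation pairs with 1 gene symbol were used, and they represent 19938 genes. The log2 difference of a gene is its log2 signal in CORIN+ cells minus that in CORIN- cells, read from its brightest cluster. Both populations came from 129SVEV mouse ESCs with GFP knocked into the Lmx1a locus, grown as serum-free floating aggregates (SFEBq) with FGF8b and SHH early in culture and ascorbic acid, BDNF and N-2 supplement later, and both were sorted as GFP+ on day 9. They differ by an antibody to CORIN. The other 2 samples of the series are CORIN+ and CORIN- cells sorted from the E11.5 ventral mesencephalon (VM) of C57BL/6N fetuses, with no GFP gate, and their values are given only beside genes named here. Since each population has 1 array, no difference has a replicate check, no p-value is given, and the folds below describe these arrays. In bulk samples, fewer cells of a type and less RNA per cell cannot be told apart.

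CORIN is a transmembrane serine protease on floor plate cells, the ventral midline strip of the neural tube that secretes patterning and axon guidance proteins. In the midbrain, unlike in more caudal regions, floor plate cells give rise to dopaminergic neurons, and LMX1A is a transcription factor of these progenitors. Neighbouring progenitors of the ventral diencephalon also express LMX1A.

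The labels were checked with the markers Corin, Ferd3l and Spon1. Corin stood at a log2 signal of 13.10 with the antibody and 11.13 without it. Ferd3l, a bHLH repressor of the floor plate, had 12.35 and 11.15, and Spon1, a secreted floor plate protein, had 12.97 and 12.03. All 3 were higher in CORIN+ cells, and all 3 were also far above dim signal in CORIN- cells. Dim signal was set by odorant, vomeronasal and taste receptor clusters, which neural progenitors are not known to use: 95% of these 1253 clusters lay below 6.77 in the CORIN+ array and 6.78 in the CORIN- array. This level is called the floor below, and a difference measured from a signal at the floor is likely to be understated.

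MicroRNA genes gave a small set of differences that can be read beside their sequences. MicroRNAs are short RNAs that repress messages paired to their seed, bases 2 to 8. A whole-transcript array does not tell the mature form from its precursor, so the values are those of the gene. Of 296 microRNA genes measured, 172 were at the floor in both arrays, 6 were at least 1.5-fold higher in CORIN+ cells (1.52% of all genes were) and 1 was at least 1.5-fold lower (2.32% of all genes were). The sequences below are those of the genes past 1.5-fold, from RefSeq (GRCm38.p6), 5′ to 3′ with the seed in capitals. They are 5p forms, except for Mir135b, and show which of these forms share a seed. For Mir135b only the 3p form was held, so its 5p seed was not compared.
miR-218-5p: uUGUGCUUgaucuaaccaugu
miR-181b-5p: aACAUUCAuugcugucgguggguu
miR-186-5p: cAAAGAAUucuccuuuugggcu
miR-1839-5p: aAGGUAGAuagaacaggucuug
miR-15b-5p: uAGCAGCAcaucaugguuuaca
miR-15a-5p: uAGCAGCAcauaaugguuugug
miR-135b-3p: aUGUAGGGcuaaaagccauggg

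Mir218-1 had the largest microRNA difference, at 10.96 on the log2 scale in CORIN+ and 9.94 in CORIN- cells (2.02-fold). Its mature form lies at chr5:48223966-48223986 on the plus strand, inside Slit2, which had a log2 difference of 0.34. Mir218-2, whose mature form has the same seed, had a log2 difference of 0.53, with the CORIN- signal at the floor. Mir181b-1 had 9.35 and 8.39 (1.94-fold). The 5 other measured genes with its seed had log2 differences from -0.05 to 0.26, so the seed group did not move as one. Mir15a (8.32 and 7.67) and Mir15b (6.34 and 5.67) share the seed AGCAGCA. Mir16-1, Mir16-2, Mir195a and Mir497 have that seed too and had log2 differences of -0.04, 0.38, -0.07 and 0.02, and Mir15b was at the floor in both arrays. Mir186, inside Zranb2 (log2 difference 0.31), had 7.71 and 7.02, and Mir1839 had 7.05 and 6.36, with the CORIN- signal at the floor. Mir135b alone was lower, with 6.76 and 7.47, and its CORIN+ signal was at the floor. Lemd1, which holds Mir135b, had a log2 difference of -0.04. Lin28a, an RNA-binding protein of early embryos that blocks let-7 maturation, had 9.43 and 10.51 and was the only 1 of 12 microRNA processing genes past 1.5-fold.

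Across all genes, 75 were at least 2-fold higher in CORIN+ cells (0.376%) and 104 at least 2-fold lower (0.522%). Past 1.5-fold lay 304 genes on the higher side (1.52%) and 462 on the lower side (2.32%), and these shares are the background for each count below. The median log2 difference was 0.0021, and the scaled median absolute deviation was 0.157. Sensory receptor genes, which show the spread of dim probe sets, ranged from -0.61 to 0.50. Where a gene had several clusters (999 genes), the log2 differences of its clusters had a pooled SD of 0.131, which is an error between probe sets and not between replicates. Of 35 such genes past 1.5-fold, 33 had every cluster on the same side of 0 and 16 had every cluster at least 1.5-fold apart. The lower genes were more often dim: 20 of the 104 at least 2-fold lower were at the floor in CORIN+ cells, and 6 of the 75 at least 2-fold higher were at the floor in CORIN- cells.

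**Figure D1:**
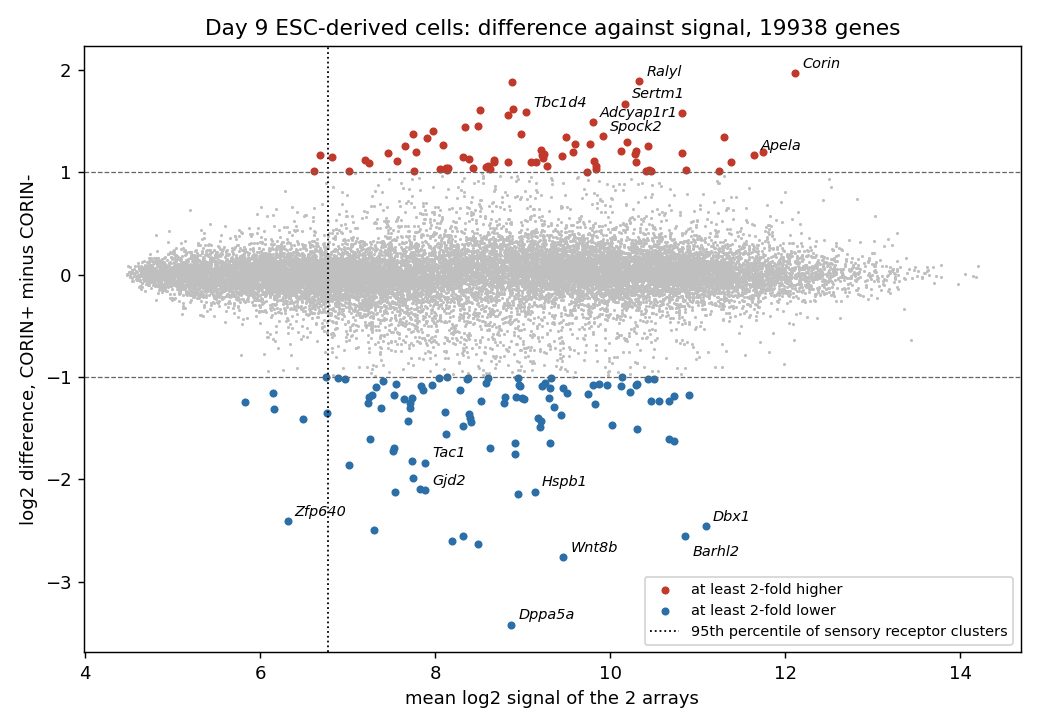
Log2 difference (CORIN+ minus CORIN-, vertical axis) against the mean log2 signal of both arrays (horizontal axis); each point is 1 of 19938 genes, the dashed lines mark 2-fold and the dotted line the floor of the CORIN+ array. The lower side reaches -3.42 and the higher side 1.96.

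The largest differences on the higher side, outside cilium genes, belonged to genes of diverse function. Ralyl, an RNA-binding protein, had log2 signals of 11.27 in the CORIN+ array and 9.39 in the CORIN- array, the order used for each pair of signals below. Sertm1, a small membrane protein gene, was 3.18-fold higher. Tbc1d4, a Rab GTPase regulator of glucose transporter traffic, had 9.83 and 8.25. Plppr1, a membrane protein of neurite outgrowth, had 11.61 and 10.03, and Tnfaip8l3, a phosphoinositide transfer protein, had 9.31 and 7.71. In the fetal VM, the CORIN+ minus CORIN- log2 differences of Ralyl, Sertm1, Tbc1d4, Plppr1 and Tnfaip8l3 were 0.40, 0.04, 0.91, -0.18 and 0.21.

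On the lower side, early embryo genes and regional transcription factors were joined by genes of other kinds. Hspb1, a small heat shock protein, had 8.08 and 10.20 (4.35-fold lower), and both of its clusters were lower (-2.12 and -1.98). The other 28 heat shock and chaperone genes had 1 member past 1.5-fold, Dnaja4, which was higher (9.81 and 8.64). Gjd2, a gap junction protein of neurons, had 6.83 and 8.94, and Gja1, the main gap junction protein of neural progenitors, had 9.87 and 10.74. Dnmt3l, a cofactor of DNA methylation in germ cells and early embryos, had 6.48 and 8.60, with the CORIN+ value at the floor. It was the only 1 of 19 polycomb and DNA methylation genes past 1.5-fold. Gprc5a, an orphan receptor of epithelia, had 6.66 and 8.38, with the CORIN+ value at the floor.

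**Figure D2:**
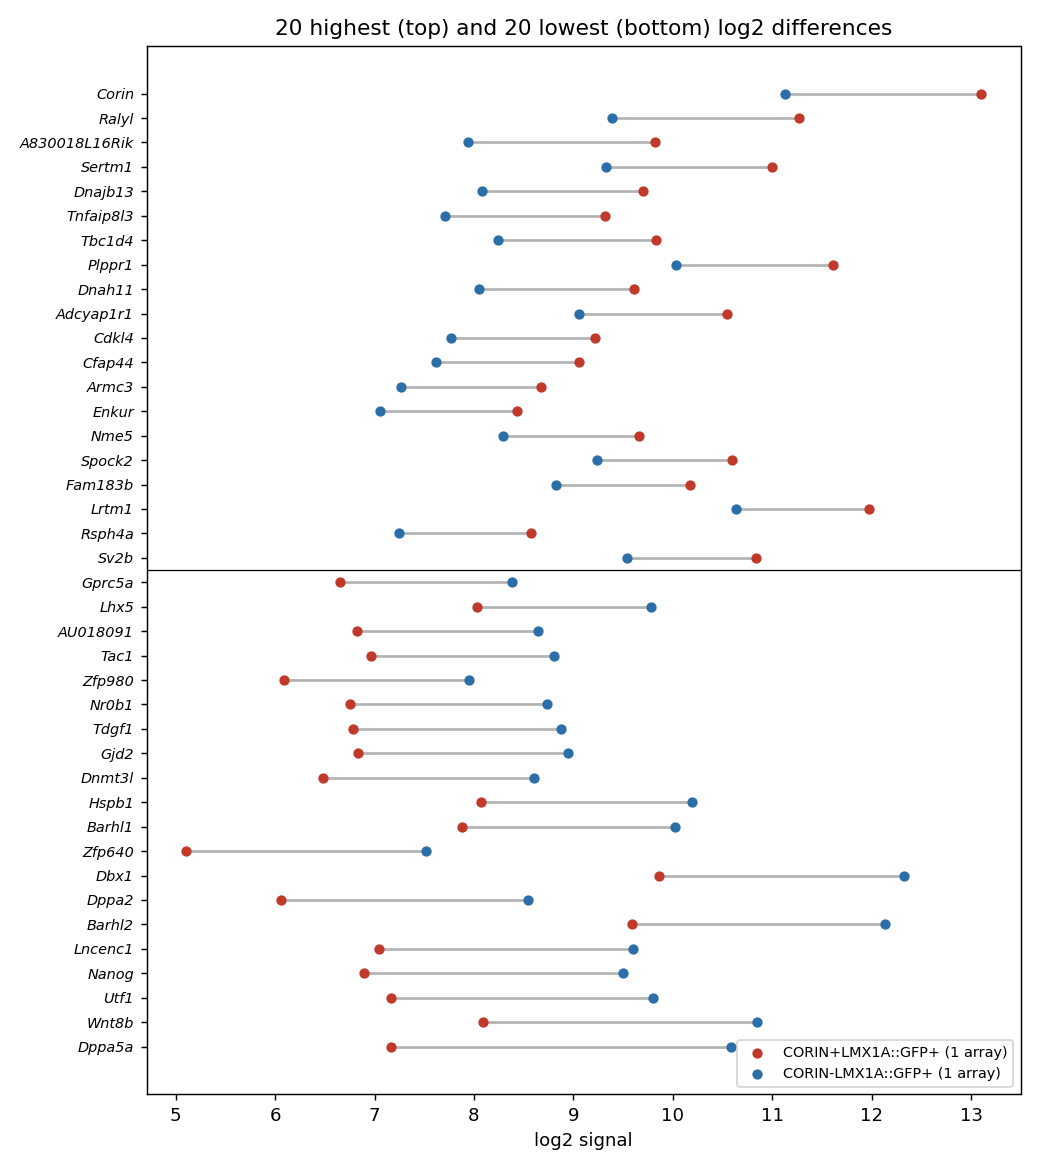
Log2 signal (horizontal axis) of the 20 genes with the highest and the 20 with the lowest log2 difference; each gene has a point for CORIN+LMX1A::GFP+ and a point for CORIN-LMX1A::GFP+ cells, 1 array each. Corin is at 13.10 and 11.13, and Dppa5a, at the bottom, at 7.16 and 10.58.

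Among 23 measured genes of subthalamic and hypothalamic progenitors, 12 lay at or past 1.5-fold on the lower side, 0 on the higher side and 11 under it. Of 10 Hoxa and 10 Hoxd genes, other regulators of position, none was past 1.5-fold. However, 3 of the Hoxa and 5 of the Hoxd genes were at the floor in both arrays. The median of the subthalamic and hypothalamic list was -0.66, against 0.0021 over all genes. Beyond the genes of the lowest 20, Sim2, a bHLH-PAS factor, had 9.92 and 11.55. Lhx2, a LIM homeobox gene of forebrain and eye, had 8.16 and 9.42, and Nkx2-4, a relative of Nkx2-1, had 8.73 and 9.78. The Iroquois gene Irx3 had 8.82 and 9.83, whereas Irx6, chosen after its value was seen, had 9.60 and 8.82 and so lay on the other side from its neighbour Irx5 (9.09 and 9.76). Rax, of the hypothalamus and eye, had the highest difference of the list, 0.29.

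Other lists of embryonic regulators had small counts. Neural crest and placode genes had 5 of 15 past 1.5-fold lower and 0 higher (median -0.36), led by Neurog1, a proneural gene of sensory neurons, with 8.45 and 9.94. Of 15 trophoblast genes, 5 were lower and none higher (median -0.41), among them Bmp4, a ligand of many tissues (10.31 and 11.49), and Gata3 (7.86 and 8.63). Early mesoderm genes had 3 of 15 lower, endoderm genes 1 of 16 and germ cell genes 3 of 19, of which 11 were at the floor in both arrays. Eye field and pigment genes had 1 of 14 higher, the retinol carrier Rbp4 (11.42 and 10.23), and 7 of the 14 were at the floor in both arrays.

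The POU and cadherin families were among those with the largest shares past 1.5-fold, and the forkhead genes were read as a set after values were seen. Of 43 forkhead genes, 6 were at least 1.5-fold lower: Foxc2, Foxf2, Foxc1, Foxf1, Foxb2 and Foxi3. The first 4 are regulators of mesenchyme, and Foxf2 (8.09 and 9.73) and Foxc1 (7.04 and 8.25) are neighbours in the genome. Foxj1 was the only one higher, and Foxa2 had a log2 difference of 0.28. Of 13 POU genes, 3 were lower, Pou5f1, Pou3f3 and Pou2f2, and none was higher. Of 23 cadherins, 5 were lower: Cdh5 of endothelium (6.68 and 8.38), Cdh7 (-1.25), the neighbouring epithelial genes Cdh3 (-0.90) and Cdh1 (-0.85), and Cdh8 (-0.61). The CORIN+ signal of Cdh5 was at the floor. No cadherin was at least 1.5-fold higher.

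Several of these groups share genes with other cell types that the GFP+ gate could hold, and marker lists of such cells differed as well. Pluripotency markers were at least 1.5-fold lower for 10 of 14, and the linear signals of the list summed to 1897 in the CORIN+ and 6120 in the CORIN- array. Mesenchyme markers were lower for 9 of 17 (sums 6872 and 12692), neuronal markers for 15 of 20 (20057 and 30940) and endothelial markers for 5 of 12 (1846 and 2669). Macrophage markers were past 1.5-fold for none of 12, and 9 of these, Csf1r and Ptprc included, were at the floor in both arrays. Red blood cell markers were past 1.5-fold for none of 8, and 5 of these were at the floor in both arrays. On the higher side were motile cilium markers, Foxj1 included, with 21 of 42 (sums 21162 and 13463), and floor plate markers, with 5 of 11 (74508 and 50450). The floor plate list holds Corin, the gene of the sorting antibody, so its count and sums were in part set by the sort. The part of these cell types in the differences of Hspb1, Gjd2, Bmp4, the forkhead genes, the cadherins and the cilium genes was not tested.

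**Figure D3:**
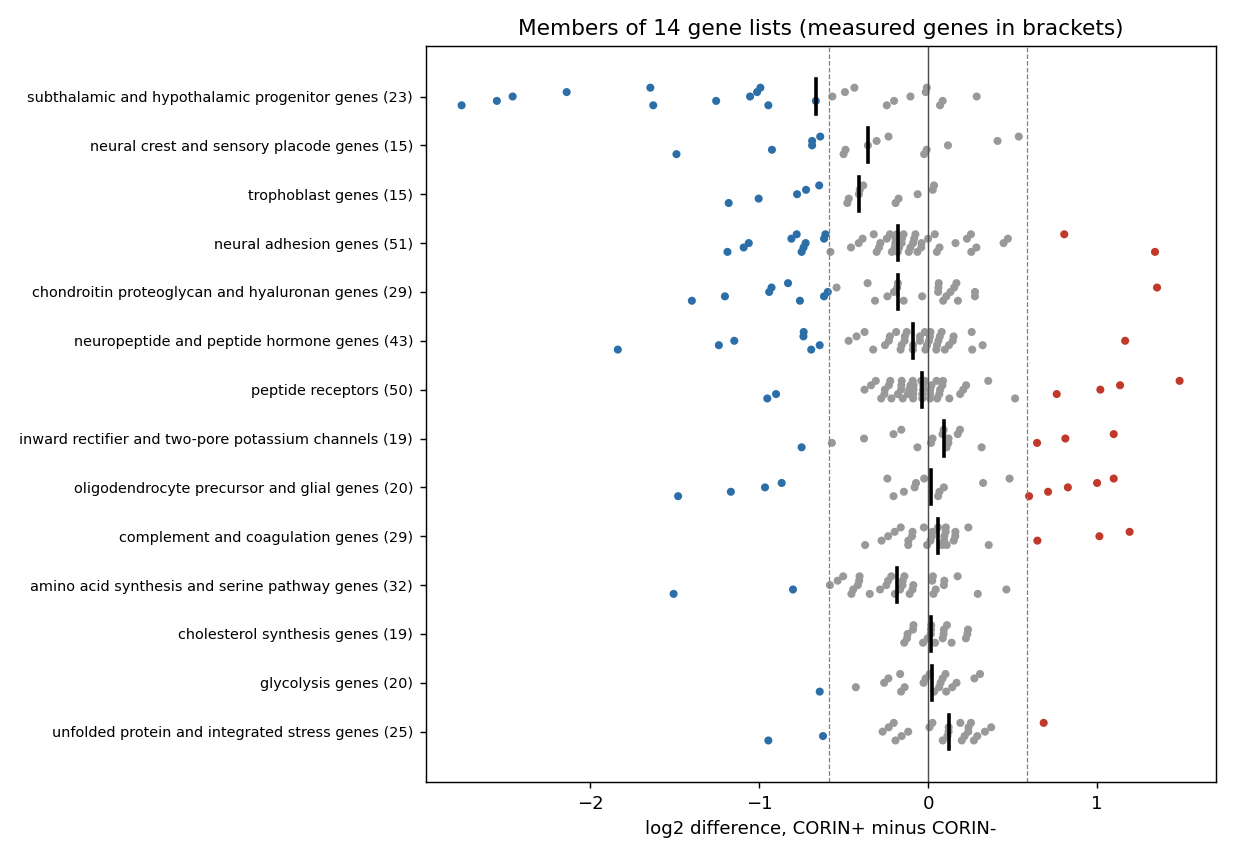
Log2 difference (horizontal axis) of each measured member of 14 gene lists, with red points at least 1.5-fold higher in CORIN+ cells, blue points at least 1.5-fold lower, grey points in between, and a black bar at the list median. Medians run from -0.66 for subthalamic and hypothalamic genes to 0.12 for unfolded protein and integrated stress genes.

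Of 43 neuropeptide and peptide hormone genes, 7 were at least 1.5-fold lower and 1 was higher. Tac1, the precursor of substance P, had 6.97 and 8.80, and its receptor gene Tacr1 had 9.80 and 8.67. Adcyap1, which encodes PACAP, had 7.35 and 8.04, and its receptor gene Adcyap1r1 had 10.54 and 9.06. In these 2 systems, set side by side after values were seen, the ligand was lower and the receptor higher in CORIN+ cells. In the angiotensin system both were above 0, with Agt at 0.20 and its receptor gene Agtr1a at 1.22. For endothelin, Edn1 had 0.26 and the receptor gene Ednrb 0.76, but another ligand gene, Edn3, had -0.33. Trh, thyrotropin-releasing hormone, had 7.91 and 9.15, while its receptor gene Trhr was at the floor in both arrays. Nxph4, a neurexin ligand, had 9.65 and 10.80, and Cartpt, Chga and Penk had log2 differences of -0.74, -0.74 and -0.64. The higher gene was Apela (12.22 and 11.06).

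Of 50 listed peptide receptor genes, 4 were higher and 2 lower. The list does not hold every receptor gene named here: Tacr1, Adcyap1r1, Agtr1a, Ramp1 and Ednrb were all at least 1.5-fold higher. Ednrb, an endothelin receptor of glial progenitors and neural crest, had 10.85 and 10.09. Ramp1 and Calcrl, the parts of the receptor for the calcitonin gene-related peptide, lay on opposite sides, with 8.65 and 7.63 for Ramp1 and 9.94 and 10.84 for Calcrl. Ntsr1, a neurotensin receptor, had a log2 difference of -0.95. In the angiotensin system, 2 of 11 genes were higher and none lower. The receptor gene Agtr1a had 9.82 and 8.60, and Mme, a peptide-degrading membrane protease, had 10.39 and 9.65, whereas the precursor gene Agt had 7.71 and 7.51.

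Growth and guidance ligands were set beside their receptors for systems chosen after their values were seen. Nrp1, a semaphorin and VEGF co-receptor, had 10.88 and 9.70, and Sema3a, one of its ligands, had 10.23 and 10.85. Kitl, the KIT ligand, had 11.68 and 10.79, and Kit had 9.79 and 10.12. The growth factor gene Ptn had 10.09 and 9.15, and its receptor Ptprz1 had 8.10 and 8.69. The ligands Slit1 and Slit3 had log2 differences of 0.85 and 0.61, and the receptors Robo1 and Robo2, neighbours in the genome, had -0.91 and -0.84. For KIT, pleiotrophin and SLIT the ligand was thus the part that was higher in CORIN+ cells. Among 52 receptor tyrosine kinase ligands, receptors and co-receptors, 3 were higher, Nrp1, Ptn and Kitl, and 6 were lower, Ddr2, Ntrk3, Pdgfra, Flt1, Erbb3 and Ror2.

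**Figure D4:**
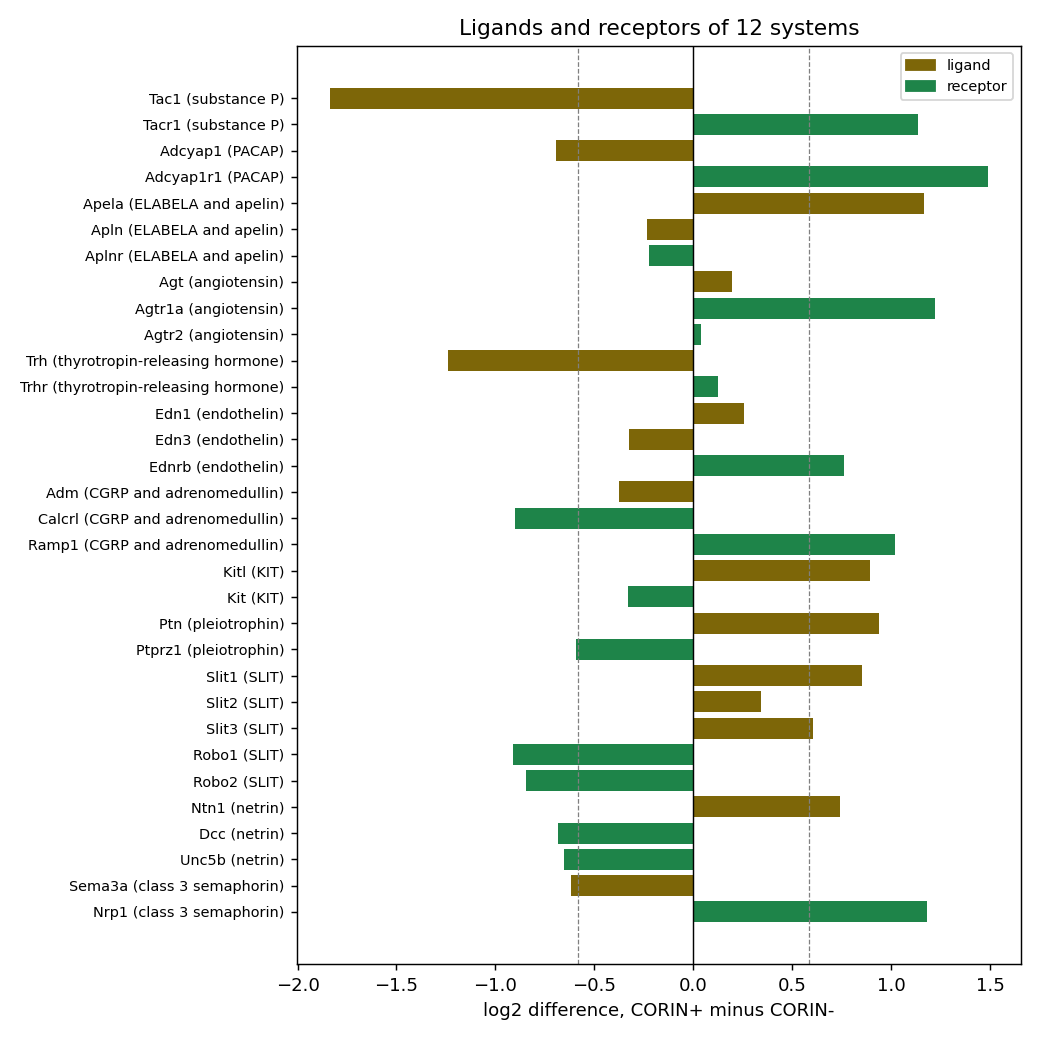
Log2 difference (horizontal axis) of ligand genes and receptor genes of 12 systems, grouped from top to bottom by system, with dashed lines at 1.5-fold; systems were chosen after values were seen. Tac1 is at -1.84 and Tacr1 at 1.14.

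Transmitter genes showed single members apart from their lists. Of 20 monoamine genes, 2 were at least 1.5-fold higher and 1 lower. Maob, a monoamine oxidase of glia, had 10.90 and 9.70, and Th, the first enzyme of dopamine synthesis, had 11.10 and 10.49. Slc29a4, a low-affinity monoamine transporter, had 9.06 and 9.86, while the dopamine transporter Slc6a3 had a log2 difference of -0.06. Nicotinic receptor subunits, chosen as a set after values were seen, had 5 of 16 lower, Chrna4 (-0.90), Chrnb2 (-0.86) and the adjacent genes Chrna5 (-0.72), Chrna3 (-0.61) and Chrnb4 (-0.71), and 8 of the 16 were at the floor in both arrays. Neuronal markers were at least 1.5-fold lower for 15 of 20, and their part in these nicotinic differences was not tested. Amine receptors had 1 of 26 past 1.5-fold, Hrh3 (-0.59). Glutamate and GABA receptors had 3 of 36, Grin2d (0.62), Gabrg1 (0.61) and Grm4 (-0.59).

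Glial genes were split. Of 20, 5 were at least 1.5-fold higher and 4 lower. The potassium channel Kcnj10 had 9.70 and 8.60. The glutamate transporter Slc1a3 was 1.999-fold higher, the Notch effector Hes5 had 9.57 and 8.74, and the radial glial lipid carrier Fabp7 had 12.30 and 11.59. Olig2, of oligodendrocyte and motor neuron progenitors, had 7.58 and 9.06, and Pdgfra had 7.89 and 8.86. Slc1a2, the other main astroglial glutamate transporter, had 9.17 and 10.34, so Slc1a2 and Slc1a3 lay on opposite sides.

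Ion channel genes followed no common direction. Of 19 inward rectifier and two-pore potassium channels, Kcnj10, Kcnj13 (7.34 and 6.53) and Kcnk2 (8.49 and 7.84) were higher, and Kcnk9 (7.17 and 7.92) was lower. The CORIN- signal of Kcnj13 was at the floor. Among 28 calcium and sodium channel genes, Cacna1e had 8.95 and 7.82 and Scn3b 11.54 and 10.84, while Cacng3 had 6.97 and 8.40, and Cacna1b, Scn3a and Cacna2d1 were lower by less. Of 32 synaptic release genes, Sv2b (10.84 and 9.54) and Unc13c (9.82 and 8.65) were higher, and 3 were lower, Slc17a6, a vesicular glutamate transporter (9.02 and 9.94), Syt4 (-0.64) and Unc13a, which was past 1.5-fold only in the brightest of its 3 clusters (-0.73, against -0.04 and 0.02).

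Of 51 neural adhesion genes, 10 were at least 1.5-fold lower, 2 were higher and 39 were under that fold. Islr2, Dscam and Cntn2, membrane proteins of growing axons, had log2 differences of -1.19, -1.09 and -1.06, whereas Lrtm1 had 11.97 and 10.63 and Nrcam 12.40 and 11.59. Cntn2 is also in the neuronal marker list, and the part of neurons in these differences was not tested. Of 29 chondroitin proteoglycan and hyaluronan genes, 20 were under 1.5-fold and 8 were lower, led by Lum (7.70 and 9.10), Bgn (8.70 and 9.90) and Has2, a hyaluronan synthase (log2 difference -0.94). Spock2, a testican of brain matrix, was the 1 higher gene with 10.60 and 9.24. Basement membrane genes had 1 of 28 past 1.5-fold, Frem2 (-0.63). Hmcn1, a large matrix protein, had 8.33 and 9.53 in its brightest cluster, which also had the lowest difference of its 77 clusters, and their mean difference was -0.49, under 1.5-fold.

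Among serine proteases and their inhibitors, 4 of 35 were higher and 2 lower. Beside Corin, these were Prss23 (10.41 and 9.14), Prss12 (9.03 and 8.36) and Plat, tissue plasminogen activator (11.35 and 10.70), against St14, an epithelial membrane protease (7.64 and 8.56), and F3, tissue factor (7.54 and 8.17). Of 29 complement and coagulation genes, 3 were higher and none lower: C1s1 (8.06 and 6.87), Lbp (10.92 and 9.90) and Thbd (9.37 and 8.72). Of 38 listed metalloproteases and inhibitors, Adamts5 was higher (11.82 and 11.06) and Adam19 lower (8.54 and 9.19). Adamts12 (10.56 and 9.73) and Adam30 (7.94 and 7.22), outside that list, were also at least 1.5-fold higher. Intermediate filament genes had 5 of 20 lower, Nefl, Des, Krt18, Ina and Nefm, which belong to neurons, muscle and epithelia.

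None of 19 cholesterol synthesis genes was past 1.5-fold (range -0.14 to 0.24). Of 20 glycolysis genes only Slc2a3, a glucose transporter that neighbours Nanog in the genome, was past it (11.78 and 12.42). Of 35 mitochondrial genes of the tricarboxylic acid cycle and carriers, only Slc25a21 was (8.89 and 7.74). Fatty acid genes had 3 of 47 higher, Lpl, lipoprotein lipase (10.03 and 8.87), Me3 and Fabp7, and 4 lower, Elovl7, Fabp5, Elovl2 and Fabp3, and 40 were under 1.5-fold. Among lipoprotein receptor genes, Vldlr (11.10 and 10.26), Mylip, the ligase that degrades these receptors (11.37 and 10.35), and Lrp1b were higher and Lrp2 was lower (9.08 and 10.08). The CORIN- signal of Lrp1b was at the floor.

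Of 32 amino acid synthesis genes, 30 were under 1.5-fold and 2 were lower (list median -0.18). Bcat1, which transfers amino groups of branched-chain amino acids, had 9.55 and 11.05, and Cth, of cysteine synthesis, had 8.27 and 9.07. The arginine and lysine transporters Slc7a3 and Slc7a1, read after values were seen, had log2 differences of -1.21 and -0.82. Of 25 unfolded protein and integrated stress genes, 17 were above 0 (median 0.12), beside 10075 of all 19938 genes. Sel1l, of protein degradation at the endoplasmic reticulum, had 12.13 and 11.45, while Chac1 and Sesn2, targets of the integrated stress response, had 8.55 and 9.49, and 10.05 and 10.67. Ptgs2, an inducible prostaglandin synthase, was the only 1 of 19 prostaglandin genes past 1.5-fold (9.13 and 8.08).

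The 250 symbol families of at least 10 genes (letters before the first digit) gave the same range. After the cilium family Cfap (median 0.30), the highest medians were 0.21 for both Ift, intraflagellar transport, with 14 of 14 above 0, and Nek, mitotic and ciliary kinases, with 9 of 10. No Ift or Nek gene was past 1.5-fold. Of all 19938 genes, 10075 were above 0 and 9846 below 0. The lowest median was -0.33 for Pcdh, protocadherins, with 10 of 12 below 0 and Pcdh9 past 1.5-fold (8.26 and 9.13). The largest share past 1.5-fold was 30% of 10 Rassf genes, RAS-association proteins, with Rassf9 (7.58 and 6.58) and Rassf4 (10.12 and 9.28) higher and Rassf2 (8.23 and 9.14) lower. The CORIN- signal of Rassf9 was at the floor, and 1 of the 10 genes was at the floor in both arrays. A shared stem is not always a family: St joins sialyltransferases with the unrelated St14 and St18. Of 20 sialyltransferases, read as a set after values were seen, 3 were at least 1.5-fold lower (median -0.11). St3gal6 (10.38 and 9.26) was the only 1 higher. Cytosolic ribosomal protein and proteasome genes, read as sets after values were seen, had none of 55 and none of 43 past 1.5-fold.

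**Figure D5:**
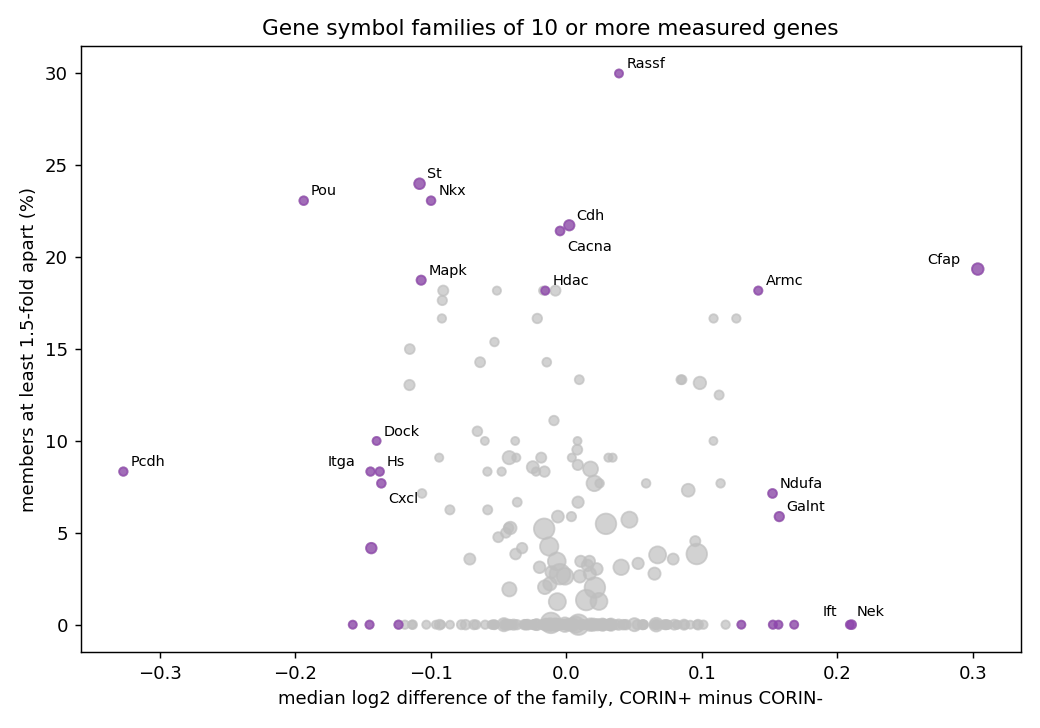
Share of members at least 1.5-fold apart in either direction (vertical axis, percent) against the median log2 difference (horizontal axis) for 250 symbol families, with larger points for larger families; purple points are the families described by the rule. Rassf is at 30% and Pcdh has the lowest median, -0.33.

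Some zinc finger genes stood far out. Zfp640 had 5.11 and 7.52, Zfp980 6.09 and 7.95 and Zfp600 5.50 and 6.81, with the CORIN+ value of each at the floor. Genes of this kind have near-identical copies, so their probes may share signal and the values of single members are uncertain. Zfp980 and Zfp600 are neighbours in the annotation.

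Neighbouring genes were read along the reference annotation. Of 19897 neighbouring pairs of measured genes, 15 had both members at least 1.5-fold higher, 27 both lower and 9 on opposite sides. Besides Foxf2 with Foxc1 and the zinc finger pair, the pairs past 2-fold were Sertm1 with Ccna1 (log2 difference 1.06), Prss23 with Me3 (1.01) and Elmod1 (1.12) with Tnfaip8l3. Corin lies beside Nfxl1, which had 10.32 and 9.71 in its brightest cluster (mean difference of its 2 clusters 0.57, under 1.5-fold). The paraoxonase genes Pon2 (10.71 and 9.77) and Pon3 (9.60 and 8.70) also form a pair. Among opposite pairs, Stmn2 had -0.90 and its neighbour Hey1, a Notch effector, had 1.10.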

How the data were processed

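An Affymetrix whole-transcript mouse array was hybridized with labelled total RNA of each sorted population. The authors deposited log2 signals, 1 per transcript cluster and array, and name GeneSpring; for summarization, normalization, filter and build no method is stated in the labels or the paper's methods. Of all clusters, 1621 have several symbols and 5446 are unnamed here. For 21698 clusters the gene identifier was found in the GRCm38.p6 annotation, and the symbol was taken from there, whether or not it differed. Signals of the pair ran from 4.45 to 14.4; no detection calls were used, and the number of arrays limits precision.

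Differences were taken from the deposited log2 values and counted past 2-fold and 1.5-fold. The 52 gene lists hold 1392 entries, 1295 of them measured. Members and lists were chosen with earlier results of these data known. Named were the markers, the 20 highest and 20 lowest genes, up to 5 members each way past 1.5-fold of each list and described family (else the 2 largest), microRNA genes past 1.5-fold and neighbouring pairs past 2-fold; other names were chosen after their values were seen. Described families were those with the 10 highest medians, the 10 lowest medians or the 10 largest shares past 1.5-fold. Alternatives were quantile normalization, median centring, 32 added to the linear signal, filters at the 20th and 50th signal percentiles and at the floor (a gene was kept if it passed in at least 1 array, percentiles taken over all clusters), the mean over clusters of a gene, and a 3-fold threshold. A value counted as moved when its shift exceeded the scaled median absolute deviation of all differences. Counting was tested on simulated data. RefSeq held sequences for 271 of 296 microRNA genes. Python 3.11.15, numpy 2.4.6, pandas 2.3.3 and matplotlib 3.10.9 were used.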

Additional observations from a re-analysis of the deposited data

Results flagged for a closer look

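The following 19 genes were past 2-fold in opposite directions between the ESC-derived and the fetal arrays, and the difference between the pairs was not tested, since each population has 1 array. Of these, 18 were lower in ESC-derived CORIN+ cells and higher in fetal CORIN+ cells. Among endothelial and blood genes, the ESC-derived log2 differences were -1.70 for Cdh5, -1.41 for Emcn, -1.30 for Cd34, -1.18 for Srgn and -1.01 for Arhgdib. For genes of mesenchyme and its matrix they were -1.69 for Foxc2, -1.64 for Foxf2, -1.22 for Foxc1, -1.20 for Tbx18, -1.40 for Lum, -1.20 for Bgn, -1.20 for Hmcn1, -1.30 for Tnc and -1.01 for Ddr2. The remaining lower genes were Sostdc1 (-1.35), Zic2 (-1.21), Cped1 (-1.20) and Bmp4 (-1.18). Cdh5, Emcn, Srgn, Arhgdib and Tnc were at the floor in the ESC-derived CORIN+ array. Hmcn1 rests on its brightest cluster: the mean over its 77 clusters was -0.49, which is under 2-fold. Elmod1 was the reverse, with 1.12 in ESC-derived cells and -1.04 in fetal cells. Other genes went the same way past 2-fold in both pairs: 16 of the 75 higher and 6 of the 104 lower ones. The share of all genes past 2-fold in the fetal pair is not given, so these counts have no fetal background. In the fetal pair Arhgdib had a log2 difference of 3.63, Srgn 2.99 and Lum 2.75. The mesenchyme marker list had medians of -0.66 (ESC-derived) and 1.78 (fetal), and the endothelial list -0.42 and 0.46. Macrophage markers had medians of 0.01 and 3.50, and red blood cell markers 0.03 and 1.23; the part of these cell types in the 19 differences was not tested.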

How the results depend on the processing

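At a 3-fold threshold, 7 genes were higher and 27 lower. Under the other alternatives every count stayed within 1.5 times its value, the lowest being 53 higher and 79 lower at 2-fold with 32 added to the linear signal. Of the genes at least 2-fold apart, 72 of 75 higher and 99 of 104 lower kept that fold under quantile normalization. No list or family median past the spread and no named gene past 1.5-fold changed sign under these alternatives; 37 of 248 named genes moved with the offset and 7 with the mean over clusters. List medians moved for germ cell genes (-0.44) and endothelium (-0.60) above the floor, and for pluripotent cells (-0.97) with the offset. No paired analysis was possible because each group has 1 array. A promoter comparison is not given. A promoter sequence was held for 74.01% of the higher genes, 72.08% of the lower genes and 78.06% of all genes. Dim signal limits the lower side most.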
